A study of Mus musculus with 8 samples.

Results

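Galanin and its receptors were followed in mouse muscle cells in culture. The 4 genes are Gal, which encodes the galanin precursor, and Galr1, Galr2 and Galr3, which encode its receptors, and they were taken by name from a table of 35275 genes. A row was found for 3 of them, and Galr3 was not analysed here. Of the 3, Gal passed the filter on low values (1 FPKM as the lowest mean over all libraries), while Galr1 and Galr2 did not. The set was selected on the measured difference between treated and control cells, which had opposite signs for Gal at 12 h and 24 h, so those differences are given below as a description, with no test.

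Galanin is a neuropeptide cut from a longer precursor and released from secretory granules. It acts on 3 G protein-coupled receptors, of which Galr1 and Galr3 mainly inhibit adenylyl cyclase and Galr2 mainly activates phospholipase C. It is best known from neurons and endocrine cells, and its transcript rises strongly in rodent sensory neurons after nerve injury, where leukemia inhibitory factor is one of the signals that raise it.

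The cells were multinucleated myotubes, differentiated in horse serum from myogenic progenitor cells (MPCs) taken as a primary culture from C57BL6/J mice. Treated myotubes received extracellular vesicles (EVs), membrane-bound particles shed by cells, isolated from MPCs with a polymer-based method. Control myotubes received EVs prepared from growth media. The exposure lasted 12 h or 24 h, which makes 4 groups (control 12 h, MPC EV 12 h, control 24 h and MPC EV 24 h) of 2 RNA-seq libraries each, and the question was which myotube genes respond to MPC EVs. Myotubes without any added EVs were not part of the series. An increase under MPC EVs and a decrease under the control preparation therefore cannot be told apart. Whether both libraries of a group stem from separate cultures is not in the labels, so p-values measure the spread between libraries, which may be technical. Polymer-based isolation can also bring down proteins and particles other than EVs.

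Values are FPKM, fragments scaled by the mapped total of the library and by transcript length, and group values are means ± SD of 2 libraries. Depth, read from the step between low values, was 16.3 to 20.2 M fragments (M for mega) in each library. Control 12 h replicate 2 stood apart. Over the genes that passed the filter, its correlation with the other library of its group was 0.947 on the log2(FPKM + 0.5) scale. The other groups had 0.992 to 0.996. Mitochondrially encoded genes took 1.56% of its summed FPKM, where the other 7 libraries had 2.09 to 4.81%. The Gal effects and some of the counts below are also given without control 12 h replicate 2. Other results, such as the correlations of single genes with Gal, are given with all libraries only. Some calls at 12 h, those of Il11ra1 and Hspb1 among them, did not hold without it. The summed FPKM of 12 myotube markers ran from 17890 to 20911 in the controls and from 19846 to 21189 with MPC EVs at 12 h, and at 24 h from 13429 to 13725 and from 16728 to 18574. The labelled cell type is therefore seen in the sum of its markers in every library, a sum in which abundant genes such as Acta1 weigh most. Of the 12 markers 11 passed the filter, while Tnnc2 stayed at 0.159 FPKM or lower.

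Gal lies on the reverse strand of mouse chromosome 19, at chr19:3409915-3414544 (GRCm38), and no annotated gene overlaps it, so that a library without strand information does not mix its fragments with those of an annotated neighbour. The stretch from 250 bases before to 50 bases after its annotated start, at chr19:3414495-3414794 on the reverse strand (RefSeq, GRCm38.p6), is shown because Gal is the member whose level moved between the groups. Capitals mark a TGACG, the core of the site bound by CREB, the cyclic AMP-responsive factor.
Gal promoter: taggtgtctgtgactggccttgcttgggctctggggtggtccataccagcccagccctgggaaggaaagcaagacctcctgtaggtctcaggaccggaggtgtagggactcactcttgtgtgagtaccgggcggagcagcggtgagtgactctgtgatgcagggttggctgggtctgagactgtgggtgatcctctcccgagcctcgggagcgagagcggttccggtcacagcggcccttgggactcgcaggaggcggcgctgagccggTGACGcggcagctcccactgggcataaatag

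The stretch was searched on both strands for 5 short motifs. TGACG begins at position 20 after the annotated start, and 20.8% of 32851 mouse promoters of the same length hold it at least once. The full site TGACGTCA, which contains TGACG, was not found in the Gal stretch and occurs in 1.79% of promoters. The AP-1 motif TGANTCA (in 7.81% of promoters), the STAT motif TTCNNNGAA (8.30%) and the E-box CANNTG (72.3%) were not found in it either. The stretch of the same length at Galr2 held 1 STAT motif, 1 E-box and none of the other motifs. A match is a match of letters in this window and does not show that a factor binds there.

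Gal was a moderately to highly expressed gene whose level was highest in control myotubes at 12 h and lowest in control myotubes at 24 h. With MPC EVs it lay between these ends at both times. It was therefore 2.88-fold lower with MPC EVs than in control at 12 h and 2.71-fold higher at 24 h, as ratios of mean FPKM.

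In control 12 h, Gal stood at 48.4 FPKM (646 fragments) in replicate 1 and at 47.2 FPKM (667 fragments) in replicate 2. In MPC EV 12 h it stood at 15.4 FPKM (190 fragments) and 17.8 FPKM (233 fragments). Both libraries with MPC EVs lay below both controls at this time. In control 24 h it stood at 4.42 FPKM (62 fragments) and 4.80 FPKM (69 fragments). In MPC EV 24 h it stood at 14.5 FPKM (169 fragments) and 10.5 FPKM (134 fragments). Here both libraries with MPC EVs lay above both controls, and no 2 of the 4 groups overlapped.

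**Figure D1:**
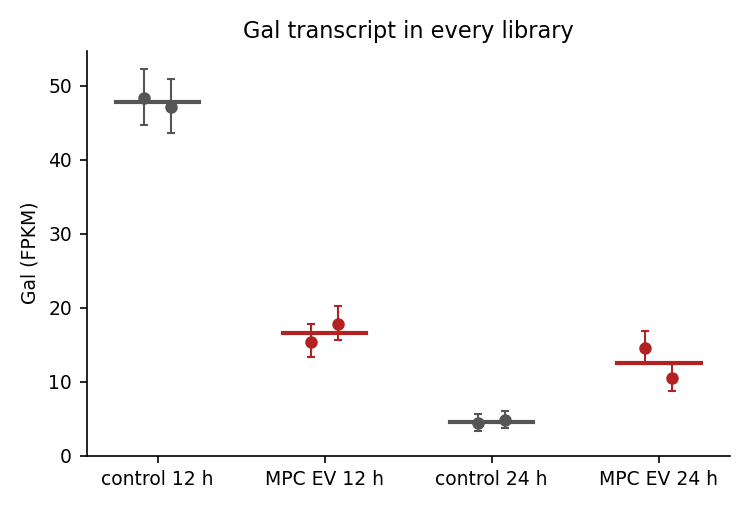
Gal in every library, in FPKM, for control and MPC EV myotubes at 12 h and 24 h; points are libraries with exact 95% Poisson intervals of their fragments, which cover counting error only, and horizontal lines are the means of 2 libraries. The controls moved from 47.2 to 48.4 FPKM at 12 h to 4.42 to 4.80 at 24 h, while the libraries with MPC EVs stayed between 10.5 and 17.8.

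From highest to lowest, the group means were 47.8 ± 0.877 FPKM for control 12 h, 16.6 ± 1.72 for MPC EV 12 h, 12.5 ± 2.88 for MPC EV 24 h and 4.61 ± 0.270 for control 24 h (SD, n = 2 each). Both MPC EV groups were neighbours in this order: their means differed by 4.12 FPKM, but the lowest library of MPC EV 12 h lay only 0.867 FPKM above the highest of MPC EV 24 h, which is less than the SD of either group. The other steps in the order exceeded the SDs of the groups on both sides. The fragments summed over the libraries of a group were 1313 (exact 95% Poisson interval 1243 to 1386), 423 (384 to 465), 303 (270 to 339) and 131 (110 to 155) in the same order, so that counting error was small beside the differences between control and MPC EV groups. PCR copies cannot be told from separate molecules here, so these intervals cover counting error only.

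Among the genes above 0 in a library, Gal ranked higher than 91.6% and 91.2% of them in the control 12 h libraries and higher than 54.8% and 56.2% in the control 24 h libraries. In the libraries with MPC EVs it ranked higher than 77.2% and 79.4% at 12 h and 75.3% and 68.7% at 24 h. Its place among expressed genes, which does not depend on the scaling of a library, therefore followed the same order of groups as its FPKM.

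On the log2(FPKM + 0.5) scale, fitted with limma over the 10981 genes that passed the filter, MPC EV minus control for Gal was -1.50 ± 0.16 (SE) at 12 h and 1.33 ± 0.16 at 24 h. The difference of these effects was 2.83 ± 0.22, and no tested gene had a larger value, while 5 were larger in size with the opposite sign. At 12 h, 34 genes had a more negative effect than Gal, and at 24 h, 30 had a more positive one. Over all tested genes 18.6% were called at 12 h, 14.3% as lower and 4.36% as higher, and 3.57% at 24 h, 2.61% as higher and 0.956% as lower (Benjamini-Hochberg adjusted p under 0.05). Without control 12 h replicate 2, the Gal effects were -1.52 at 12 h and 1.33 at 24 h, and their difference was 2.85. The median gene was shifted by -0.12 at 12 h and -0.03 at 24 h, small beside the Gal effects.

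The change of Gal with time, averaged over both treatments, is a contrast that the choice of Gal did not use, and it was tested. Its p-value rests on the same libraries and the same spread as the EV effects, so it is not fully separate from that choice. Averaged over both treatments, Gal fell from 12 h to 24 h by 1.83 ± 0.11 on the log2 scale (limma, adjusted p = 0.000194), and 28.0% of tested genes were called for this contrast, 11.4% as lower at 24 h and 16.6% as higher. Only 12 tested genes had a more negative time effect. The call was kept under every alternative run, with values from -1.94 to -1.71. Most of the average came from the controls, as a description: 24 h minus 12 h was -3.24 ± 0.16 in control myotubes, more negative than for any other tested gene, and -0.41 ± 0.16 with MPC EVs. In mean FPKM this was a 10.4-fold lower level at 24 h in the controls and a 1.33-fold lower level with MPC EVs. Each of these values shares libraries with the EV effects above. RNA came from whole cultures, so fewer cells that hold the transcript and less transcript per cell cannot be told apart.

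Few genes passed the threshold at both times with opposite signs. The genes past it as lower at 12 h and as higher at 24 h came to 3 of those tested (0.0273%). That number includes Gal, which was chosen for this pattern and for which it is no test. The other two were Mcrip2 and Lce1g, which encodes a late cornified envelope protein. Mcrip2 was at 27.8 ± 0.121 FPKM in control and 21.8 ± 0.00575 with MPC EVs at 12 h, and at 29.4 ± 0.890 and 36.8 ± 0.408 at 24 h. Its effects were -0.34 ± 0.06 (adjusted p = 0.0147) and 0.32 ± 0.06 (adjusted p = 0.0373), a fraction of those of Gal. Lce1g was at 5.0 ± 0.627 FPKM in control and 3.05 ± 0.691 with MPC EVs at 12 h, and at 0.975 ± 0.0601 and 2.83 ± 0.162 at 24 h. Its effects were -0.64 ± 0.17 (adjusted p = 0.0442) and 1.17 ± 0.17 (adjusted p = 0.0207), and its order of groups was that of Gal. The difference of the 2 effects had an adjusted p of 0.0985 for both genes.

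Gal alone had effects of at least 1 in size on the log2 scale in these directions at both times, although 108 genes were lower by 1 or more at 12 h and 88 higher by 1 or more at 24 h. Counting signs of any size, 2727 genes (24.8%) were lower at 12 h and higher at 24 h. Past the threshold in the same direction at both times were 183 genes (1.67%) as higher and 86 (0.783%) as lower. The count of 3 depended on single libraries: it was 31 without control 12 h replicate 1, 9 without control 12 h replicate 2, 1 without either MPC EV 12 h library or without MPC EV 24 h replicate 2, and 0 without either control 24 h library or without MPC EV 24 h replicate 1. For the difference of the effects itself no gene passed in limma (0.0%), where 2014 had an unadjusted p under 0.05, nor in voom on recovered fragments, where 1955 of 10973 had one. This count was 3668 without control 12 h replicate 1, 3 without control 12 h replicate 2 and 1 without MPC EV 24 h replicate 2.

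**Figure D2:**
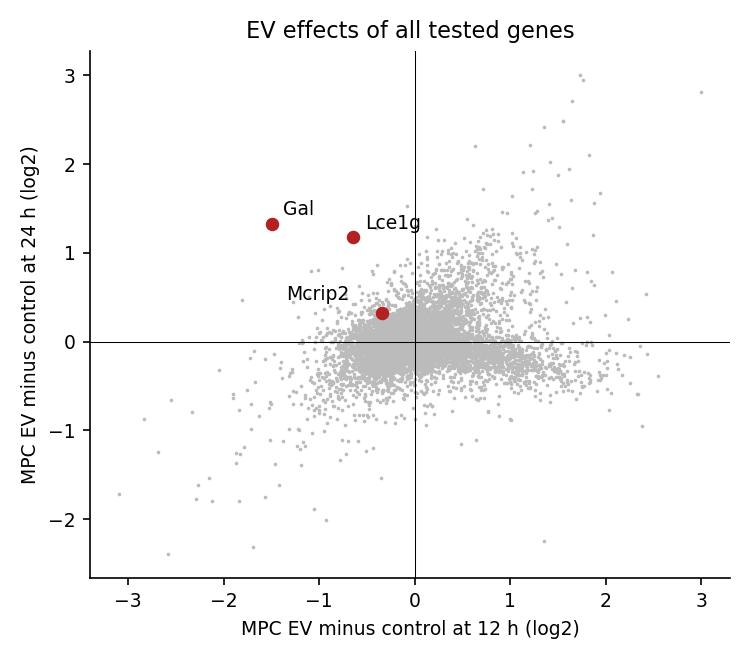
EV effect of each tested gene at 12 h (horizontal axis) and at 24 h (vertical axis), as MPC EV minus control in log2(FPKM + 0.5); grey points are genes, and red points are Gal, which was chosen for this pattern, and the other two genes past the threshold as lower at 12 h and higher at 24 h. Gal lies at -1.50 and 1.33, farther out in the upper left than Lce1g at -0.64 and 1.17 and Mcrip2 at -0.34 and 0.32.

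Of the receptors, Galr1 was not detected and Galr2 was detected at a low level, in contrast to the ligand. Galr1, the receptor that inhibits adenylyl cyclase, had no fragment in any of the 8 libraries, and 3 fragments, the limit that a count of 0 allows, would have given 0.0498 to 0.0615 FPKM depending on the library. Galr2, the receptor coupled to phospholipase C (chr11:116280939-116283938, forward strand, GRCm38), was seen in all 8 libraries at 9 to 32 fragments each. Its mean over the libraries was 0.565 FPKM, and the mean of Gal was 36.1-fold higher per length.

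At 12 h Galr2 stood at 0.523 and 0.415 FPKM (19 and 16 fragments) in the controls and at 0.268 and 0.478 FPKM (9 and 17 fragments) with MPC EVs. At 24 h it stood at 0.837 and 0.562 FPKM (32 and 22 fragments) in the controls and at 0.632 and 0.802 FPKM (20 and 28 fragments) with MPC EVs. Control and MPC EV libraries overlapped at both times, while all 4 libraries of 24 h lay above all 4 of 12 h. The group means were 0.469 ± 0.0759, 0.373 ± 0.148, 0.699 ± 0.195 and 0.717 ± 0.121 FPKM (SD, n = 2 each). From highest to lowest the order was MPC EV 24 h, control 24 h, control 12 h and MPC EV 12 h, and the 2 groups of the same time differed by less than the larger of their SDs at both times.

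Summed over libraries, Galr2 had 61 fragments at 12 h and 102 at 24 h. In a fit without the filter on low values, which covered 21406 genes, its time effect was 0.39 ± 0.13 on the log2 scale and did not pass (limma, adjusted p = 0.122). With a filter at 0.1 FPKM, over 15048 genes, the adjusted p was 0.0883. The EV effects in the unfiltered fit were -0.16 ± 0.19 at 12 h (adjusted p = 0.664) and 0.03 ± 0.19 at 24 h (adjusted p = 1). At 9 to 32 fragments per library, small differences between control and MPC EV were not detectable at this depth.

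**Figure D3:**
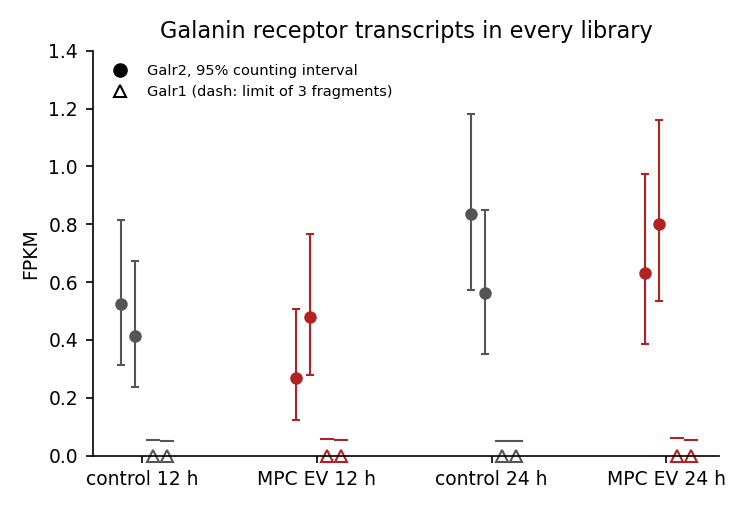
Galr2 (filled circles) and Galr1 (open triangles) in every library, in FPKM; bars on Galr2 are exact 95% Poisson intervals of its fragments, and dashes are the level that 3 fragments of Galr1 would give. Galr2 lies between 0.268 and 0.523 FPKM at 12 h and between 0.562 and 0.837 at 24 h, and Galr1 is at 0 throughout.

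Other ligands and receptors of the same family were also low. Galp, which encodes galanin-like peptide, was at 0 in every library. Spx, which encodes spexin, a further ligand of galanin receptors, had group means of 0.197, 0.0527, 0.217 and 0.143 FPKM (control and MPC EV at 12 h, then at 24 h). Kiss1r, the kisspeptin receptor, and Gpr151, an orphan receptor related in sequence to the galanin receptors, stayed below 1 FPKM in every library. Beside Gal, none of the 6 galanin-related genes with a row in the table passed the filter.

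Neuropeptide precursors as a group were sparse in these cells, and Gal was the most abundant of them in control 12 h. Of 40 other precursors, 10 were at 0 in every library and 6 passed the filter. Their summed FPKM was 33.6 to 37.8 in control 12 h and 29.5 to 29.9 in control 24 h, so that in control 12 h Gal alone exceeded the sum of the other 40 and in control 24 h it was well below it. Of the 6 tested, 1 rose and 1 fell at 12 h, against 4.36% and 14.3% of all tested genes, and 1 rose and none fell at 24 h, against 2.61% and 0.956% (no member had an unadjusted p under 0.05 in that direction, and voom called none). The list's median effect was -0.12 at 12 h, equal to that of all genes, and 0.25 at 24 h against -0.03.

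Apln, which encodes apelin, a peptide hormone secreted by muscle and fat, had 1.24 and 1.55 FPKM in the controls of 12 h against 4.07 and 4.10 with MPC EVs. At 24 h the controls had 0.790 and 0.676 FPKM and the treated libraries 2.74 and 3.12. It was higher with MPC EVs in all libraries at both times, by 1.28 ± 0.14 on the log2 scale at 12 h (limma, adjusted p = 0.00558) and by 1.48 ± 0.14 at 24 h (adjusted p = 0.00517). The call at 24 h was lost when any of the 4 libraries of 24 h was left out, with an adjusted p of up to 0.0715. The sign of its EV effect at 12 h was thus opposite to that of Gal and its sign at 24 h the same. Edn1, which encodes the vasoconstrictor endothelin-1, had 1.82 and 1.72 FPKM in the controls of 12 h against 0.837 and 0.861 with MPC EVs, and fell by 0.75 ± 0.14 (adjusted p = 0.0203). That call was lost without either MPC EV 12 h library or either control 24 h library, with an adjusted p of up to 0.0966. Adm2, which encodes intermedin and was at 14.7 to 22.5 FPKM in all libraries, did not pass at either time. Penk, the enkephalin precursor, was named after its values were seen and did not pass the filter: it had 2.21 and 2.47 FPKM in control 12 h and 0.0767 to 0.455 FPKM in the other 6 libraries.

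Tested genes of prohormone processing showed no EV effect that passed, while some moved with time. Secretory granule genes of the same list, such as Scg2, Chga, Chgb and Vgf, did not pass the filter and were not tested. Of 21 genes 7 passed the filter, and limma and voom called none of them in either direction for the EV effects, although 3 had an unadjusted p under 0.05 at 12 h and 0 had one at 24 h. Between 12 h and 24 h, 3 rose and 1 fell, against 16.6% and 11.4% of all tested genes. Pam, the enzyme that amidates the carboxyl end of peptides such as galanin, had 14.7 to 18.3 FPKM in the libraries of 12 h and 29.3 to 30.4 in those of 24 h, with no overlap, and rose by 0.86 ± 0.07 (adjusted p = 0.000444). Furin, a protease that cuts precursors in the secretory pathway, fell by 0.41 ± 0.07 (adjusted p = 0.00788). The carboxypeptidases Cpe and Cpd, which trim the cut peptides, rose by 0.24 ± 0.05 (adjusted p = 0.0110) and 0.28 ± 0.05 (adjusted p = 0.0101). These 4 were named after their values were seen, and the count of 3 was 1 without control 24 h replicate 1. Pcsk1 and Pcsk2, the convertases of dense-core granules in endocrine cells, stayed near 0, with group means of at most 0.0570 and 0.123 FPKM. Vgf and Scg2, named after their values were seen, were low but differed between treatments in opposite directions. Vgf had means of 0.640 FPKM in control and 0.186 with MPC EVs at 12 h, and 0.636 and 0.223 at 24 h. Scg2 had 0.279 and 0.770 FPKM at 12 h, and 0.180 and 0.678 at 24 h.

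Some genes of the gp130 cytokine pathway, known as a route to galanin induction in rodent neurons after injury, were lower with MPC EVs at 12 h, Lif among them. Of 24 genes 13 passed the filter, and 5 fell and 0 rose at 12 h, against 14.3% and 4.36% of all tested genes (none had an unadjusted p under 0.05 in the rising direction, and voom called none). At 24 h none was called by limma or voom, although 1 had an unadjusted p under 0.05 as higher and 2 as lower. The list's median effect was -0.28 at 12 h and -0.08 at 24 h, against -0.12 and -0.03 for all genes. With time, 2 rose and 4 fell, against 16.6% and 11.4%. Beside the 5 that fell at 12 h, Clcf1, Ctf1 and Jak2 had effects of 0.16, 0.27 and 0.57, which did not pass. Il11, below the filter, had group means of 0.311 FPKM in control and 0.930 with MPC EVs at 12 h. At 24 h its means were 0.397 and 1.88. These genes were named after their values were seen.

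Lif, which encodes leukemia inhibitory factor, had 7.36 and 8.68 FPKM in the controls of 12 h against 3.21 and 3.70 with MPC EVs. At 24 h the controls had 3.77 and 3.26 FPKM and the treated libraries 4.20 and 3.15. Control 12 h was thus the one group apart for Lif, and it was also the highest group for Gal. At 24 h the groups overlapped for Lif but not for Gal. Whether Lif bears on Gal in these cells was not tested. Lif fell with MPC EVs by 1.11 ± 0.16 at 12 h (limma, adjusted p = 0.0115, kept in 15 of 17 alternatives) and had an effect of 0.05 ± 0.16 at 24 h (adjusted p = 0.965). Tyk2, a Janus kinase, fell by 0.56 ± 0.10 (adjusted p = 0.0177, kept in 14 of 18 alternatives). Il11ra1, the interleukin-11 receptor, fell by 0.59 ± 0.14 (adjusted p = 0.0353), a call kept in only 6 of 17 alternatives and lost under both other scalings, with an adjusted p of up to 0.135. Socs2, a feedback inhibitor of cytokine signalling named after its values were seen, fell by 0.50 ± 0.12 (adjusted p = 0.0399). Il6st, which encodes gp130 itself, was at 27.7 to 38.4 FPKM and did not pass in any contrast.

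The count of 5 was 4 under quantile normalization, 3 under median-ratio scaling and 5 in voom. Over all tested genes 1253, 1215 and 1812 were called at 12 h in these settings, against 2045 in the main fit. With libraries left out in turn, the list count stayed within 1.5 times in 2 of 8 fits and was lower in the others. The number called over all genes at 12 h moved too, staying within 1.5 times in 1 of 8.

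**Figure D4:**
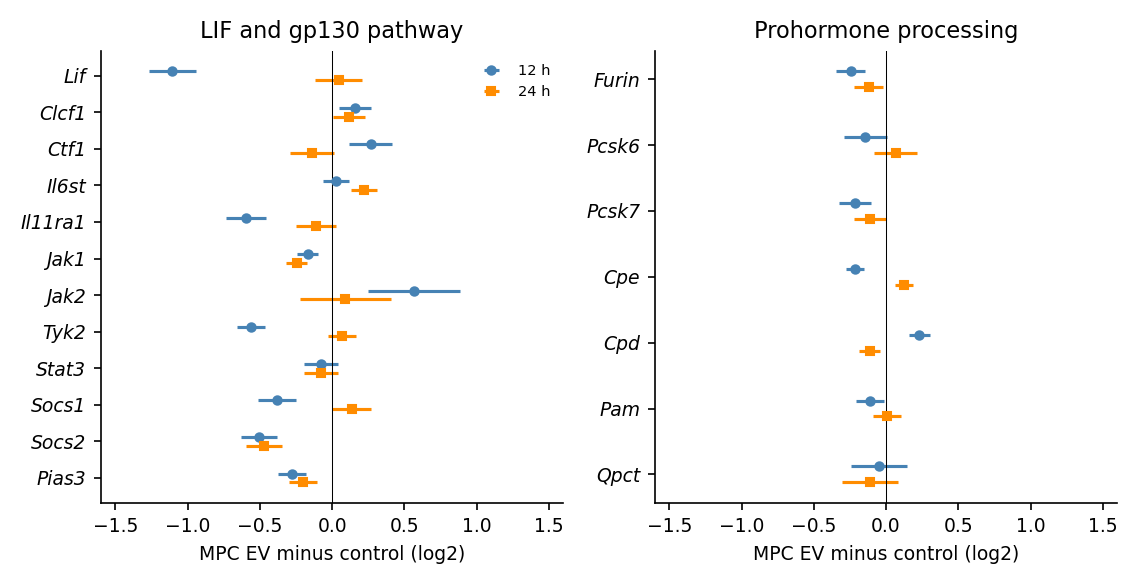
EV effect at 12 h (circles) and at 24 h (squares) for tested genes of the LIF and gp130 pathway (left) and of prohormone processing (right), as MPC EV minus control in log2(FPKM + 0.5) with bars of 1 SE. Lif lies at -1.11 at 12 h and 0.05 at 24 h, and no gene shown in either panel was called at 24 h.

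Genes of the G protein pathways that galanin receptors use included 5 of 21 that fell at 12 h. Of 34 genes 21 passed the filter, and beside the 5 that fell, against 14.3% of all tested genes, none rose at 12 h, against 4.36%, with none having an unadjusted p under 0.05 as higher and none called so by voom. At 24 h 1 rose and 1 fell, against 2.61% and 0.956% of all genes. With time 3 rose (Gng5, Adcy6 and Adcy9) and 1 fell (Rgs16), against 16.6% and 11.4%. The median effects were -0.11 at 12 h and -0.09 at 24 h, against -0.12 and -0.03 for all genes. Rgs4, a brake on Gq and Gi signalling, had 2.45 and 2.81 FPKM in the controls of 12 h against 0.275 and 0.501 with MPC EVs. At 24 h the controls had 2.04 and 1.94 FPKM and the treated libraries 0.479 and 0.586. It was lower with MPC EVs in all libraries at both times, with effects of -1.83 ± 0.17 (limma, adjusted p = 0.00383) and -1.27 ± 0.17 (adjusted p = 0.0175). The call at 24 h was lost without any one of the 24 h libraries, with an adjusted p of up to 0.162. Rgs16, of the same family, rose at 24 h by 1.15 ± 0.17 (adjusted p = 0.0246), a call kept in 10 of 18 alternatives. Gnb4, a G protein beta subunit, fell at 12 h by 0.64 ± 0.10 (adjusted p = 0.0138), and Arrb2, a beta-arrestin, by 0.59 ± 0.13 (adjusted p = 0.0292), calls kept in 15 of 17 and 8 of 18 alternatives. The other two that fell at 12 h were Gnb2 and Gng5, by 0.26 and 0.30, named like the genes of the time effect after their values were seen. The count of 5 was 2 under quantile normalization, 2 under median-ratio scaling and 3 in voom. Over all tested genes 1253, 1215 and 1812 were called at 12 h in these settings, against 2045 in the main fit. With libraries left out in turn, the list count stayed within 1.5 times in 0 of 8 fits. It was lower in all of them but the fit without control 12 h replicate 1. The number called over all genes at 12 h moved too, staying within 1.5 times in 1 of 8.

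Some targets of cyclic AMP and ERK signalling, which lie downstream of many receptors, were higher with MPC EVs at both times. Of 33 genes 30 passed the filter, and 6 rose and 3 fell at 12 h, against 4.36% and 14.3% of all tested genes. At 24 h 10 rose and 1 fell, against 2.61% and 0.956%, and with time 6 rose and 8 fell, against 16.6% and 11.4%. The median effects were 0.24 at both times, against -0.12 at 12 h and -0.03 at 24 h for all genes. Each gene called at both times (Junb, Nr4a1, Dusp5, Dusp6, Spry4 and Hbegf) had the same sign at both, unlike Gal. Dusp6, an ERK phosphatase, rose by 1.39 ± 0.10 at 12 h (adjusted p = 0.00245) and 1.37 ± 0.10 at 24 h (adjusted p = 0.00275), and the related Dusp5 by 0.81 ± 0.11 and 1.26 ± 0.11 (adjusted p = 0.00909 and 0.00384, kept in 16 and 17 of 18 alternatives). Nr4a1, an orphan nuclear receptor, rose by 0.97 ± 0.10 and 1.45 ± 0.10 (adjusted p = 0.00558 and 0.00275). Junb, an AP-1 subunit, had 86.0 and 83.7 FPKM in control 12 h against 17.2 to 33.8 in the other 6 libraries, and fell by 1.51 ± 0.14 at 12 h (adjusted p = 0.00372). Its fall of 0.70 ± 0.14 at 24 h (adjusted p = 0.0499) was kept in 7 of 18 alternatives. The 6 that rose at 12 h became 4 under quantile normalization and 8 under median-ratio scaling. With libraries left out in turn, this count stayed within 1.5 times in 1 of 8 fits. The count of 10 that rose at 24 h did so in 4 of 8, and it was lower without any one of the 24 h libraries. The numbers called over all genes moved too, staying within 1.5 times in 1 of 8 fits at 12 h and 0 of 8 at 24 h.

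Few genes that rise together with galanin in injured sensory neurons passed the test for an EV effect. Of 22 genes 10 passed the filter, of which 1 rose and 1 fell at 12 h, against 4.36% and 14.3% of all tested genes, and 1 rose at 24 h, against 2.61%. With time, 2 rose and 4 fell, against 16.6% and 11.4%. The gene that rose with MPC EVs was Hspb1, a small heat shock protein, by 0.28 ± 0.07 at 12 h (limma, adjusted p = 0.0461) and 0.49 ± 0.07 at 24 h (adjusted p = 0.0258), kept in 6 and 12 of 18 alternatives. None fell at 24 h, where none had an unadjusted p under 0.05 as lower and voom called none.

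Markers of cell types that make galanin were in part at or near 0 and in part expressed. Of 10 neuronal markers, Snap25, Elavl3, Elavl4, Syt1 and Prph had group means of at most 0.0660 FPKM, while Tubb3, Stmn2, Nefm and Isl1 passed the filter and Nefl reached a group mean of 1.30. Of 8 neuroendocrine markers, Th was at 0 in all libraries and Chga at a mean of at most 0.0300, while Ddc passed the filter and Dbh, the enzyme that makes noradrenaline, had 1.13 and 1.28 FPKM in control 12 h and 0.120 to 0.598 in the other 6 libraries. The summed FPKM of the neuronal markers ran from 54.6 to 61.2 in the controls and from 45.4 to 46.4 with MPC EVs at 12 h, and at 24 h from 26.7 to 27.8 and from 27.0 to 29.3. Most of it was Tubb3, a tubulin, which fell with time by 1.05 ± 0.06 (limma, adjusted p = 0.000147) and at 12 h with MPC EVs by 0.43 ± 0.08 (adjusted p = 0.0214), the latter call kept in 12 of 18 alternatives. Stmn2, a regulator of microtubules in growing axons, was lower with MPC EVs, with effects of -1.42 ± 0.17 at 12 h and -1.61 ± 0.17 at 24 h (adjusted p = 0.00664 and 0.00827, kept in 16 and 14 of 17 alternatives). Nefm, a neurofilament, was higher by 1.83 ± 0.15 and 2.11 ± 0.15 (adjusted p = 0.0033 and 0.0029). These neuronal markers thus differed in sign among themselves. The neuroendocrine markers summed to 7.64 to 9.37, 10.3 to 11.0, 2.49 to 2.97 and 2.79 to 4.33 FPKM in the same order, mostly Ddc, which decarboxylates DOPA and fell with time by 1.59 ± 0.17 (adjusted p = 0.00131). The markers here and below were singled out after their values were seen.

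The 10 markers of Schwann cells and glia summed to 38.7 to 48.1, 60.7 to 61.8, 23.5 to 24.8 and 33.6 to 35.2 FPKM, mostly Erbb3, a neuregulin receptor, while Sox10 had group means of at most 0.215. Erbb3 was higher with MPC EVs at 12 h by 0.70 ± 0.11 (limma, adjusted p = 0.0141, kept in 16 of 18 alternatives) and fell with time by 0.79 ± 0.08 (adjusted p = 0.000995). Ngfr, the low-affinity neurotrophin receptor of the same list, had 4.99 and 5.54 FPKM in control 12 h and 0.226 to 1.12 in the other 6 libraries. It was lower at 12 h, with an effect of -2.83 ± 0.19 (adjusted p = 0.00245), and fell with time by 1.08 ± 0.13 (adjusted p = 0.00235). The 2 genes of this list that passed the filter were thus of opposite sign at 12 h. In the same order of groups, the 8 fibroblast markers summed to 31.5 to 32.5, 21.5 to 24.7, 46.6 to 49.2 and 28.8 to 29.1 FPKM, lower with MPC EVs at both times. The 8 progenitor markers summed to 1044 to 1123, 996 to 1039, 739 to 741 and 783 to 785 FPKM. Macrophage markers summed to at most 3.0 and endothelial markers to at most 1.01 FPKM in any library. The progenitor sum was, like Gal, highest in control 12 h and lowest in control 24 h, and the neuronal sum was also highest in control 12 h, with both groups of 24 h overlapping, and the part of these markers in the Gal result was not tested.

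The genes most like Gal in shape were found by Pearson r of log2(FPKM + 0.5) over the 8 libraries, among 9262 named genes whose mean reached 2 FPKM. An r measures the shape of a profile and not its size, and the 8 points share the groups and libraries. Of these genes 118 (1.27%) had an r of at least 0.9 and 44 an r of -0.9 or lower. The highest was that of Axl, a receptor tyrosine kinase, at 0.985. At 12 h Axl stood at 117.7 ± 6.07 FPKM in the controls and 94.0 ± 6.13 with MPC EVs, and at 24 h at 73.1 ± 1.10 and 87.2 ± 1.38. Its groups followed the order of Gal, but its EV effects, -0.32 ± 0.07 at 12 h and 0.25 ± 0.07 at 24 h, were a fraction of the size.

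Next in r were Cdc26, a subunit of the anaphase-promoting complex, at 0.983, the sulfate donor transporter Slc35b2 at 0.975, Unc119b at 0.970, Pcyox1l at 0.967, the proteasome subunit Psmd12 at 0.967, Sh3bp5 at 0.965 and Pik3r2, a regulatory subunit of PI 3-kinase, at 0.964. The EV effects of these 7 ran from -0.34 to -0.15 at 12 h and from 0.08 to 0.26 at 24 h. The lowest r were -0.963 for Desi2, -0.957 for Ralgapb and -0.954 for Serinc5, with effects of 0.15 to 0.24 at 12 h and -0.21 to -0.09 at 24 h. The profile of Gal was thus shared in shape by many genes and in size by none of these 11.

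**Figure D5:**
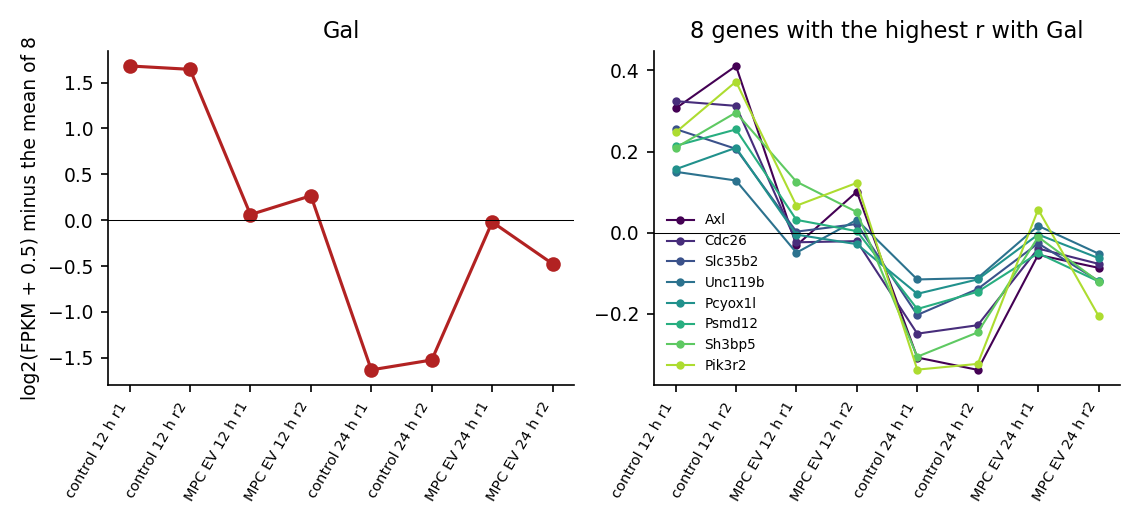
Gal (left) and the 8 genes with the highest Pearson r with it (right), as log2(FPKM + 0.5) minus the mean of the 8 libraries, on separate vertical axes; r1 and r2 are replicate numbers, and lines only join the values of 1 gene. All 9 genes are highest in control 12 h, but the range of Gal is several units against less than 1 unit for the others.

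None of the 6 nearest tested neighbours of Gal on chromosome 19 passed the threshold for the EV effect at both times. Cpt1a, which imports fatty acids into mitochondria and lies 24182 bases away, had effects of -0.13 ± 0.11 at 12 h and -0.02 ± 0.11 at 24 h, and Ppp6r3, 40384 bases away on the other side, had 0.35 ± 0.21 and -0.00 ± 0.21. Neither passed (limma, adjusted p of 0.417 and 0.975 for Cpt1a and 0.244 and 1.00 for Ppp6r3). Of the 6 nearest tested genes, 3 on each side, only Mrpl21, a mitochondrial ribosomal protein 117078 bases away, passed in any contrast, with -0.30 ± 0.08 at 12 h (adjusted p = 0.0445). At 24 h its effect was 0.10 ± 0.08 and did not pass (adjusted p = 0.737), so it had the signs of Gal at a smaller size. Ighmbp2 (-0.30 and 0.01) and 1810055G02Rik (-0.02 and 0.07) also had these signs, while Cpt1a, Ppp6r3 and Lrp5 did not have both.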

How the data were processed

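The data are 8 RNA-seq libraries of mouse myotubes. Per the labels' protocols, the libraries carried no strand information and both fragment ends were read on a NovaSeq machine. The deposited data are FPKM values of 35275 genes in a single table made by the authors. The submitters' processing notes name HISAT2, DESeq2 (version given as 2) and mm10, with no role stated. How fragments were counted, with which annotation and which filters, is not given in the sources used here. Because FPKM is relative to a library's total, abundant transcripts can move all its other values.

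Symbols and GRCm38 coordinates came from GENCODE vM21, which may not be the authors' annotation, and 34490 of the 35275 IDs had a symbol. Whole fragments were recovered from the steps of the values for 10973 of 10981 tested genes (99.9%, tolerance 0.001). Limma 3.58.1 in R 4.3.3 was run two-sided on log2(FPKM + 0.5), with lmFit and a trended eBayes, for genes averaging 1 FPKM or more, in 4 groups sharing 1 spread per gene (4 residual degrees of freedom), with Benjamini-Hochberg adjustment over all of them and a threshold of 0.05. The constant added to FPKM understates changes of low genes. Python 3.11.15 with pandas 2.3.3 and matplotlib 3.10.9 made tables and figures. The fit was tested on simulated data.

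The members, gene lists and tests were chosen with earlier results of these data known. Besides the members, the text names the 8 genes with the highest and 3 with the lowest r with Gal, the genes called at both times in its directions, the 3 nearest tested genes on each side, and up to 4 called members per list. Exceptions are marked where they occur, and 1 gene under this rule is not reported here. Gal is not counted in any list. Alternatives were pseudocounts of 0.1 and 1, filters at 0.1 and 5 FPKM and none, quantile normalization, median-ratio scaling, an eBayes step with no trend, a term for the replicate number, and leaving out each library. Limma voom on the recovered fragments was added after the data were seen. Promoter sequence is from RefSeq (GRCm38.p6), and intervals of fragments are exact Poisson at 95%.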

Additional observations from a re-analysis of the deposited data

Results flagged for a closer look

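The EV effect on Gal had opposite signs at the 2 times. At 12 h both libraries with MPC EVs lay below both controls, and at 24 h both lay above both controls, and the difference of the effects was 2.83 on the log2 scale. The difference was not tested for Gal, because Gal was chosen for it.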

How the results depend on the processing

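Gal kept the sign of both EV effects and of their difference under all 18 alternatives, and its time effect stayed called (adjusted p of at most 0.00256). With libraries left out in turn its values ran from -1.60 to -1.40 at 12 h, 1.10 to 1.56 at 24 h, 2.60 to 3.06 for the difference and -1.94 to -1.71 for time, and the 24 h effect was 1.10 without MPC EV 24 h replicate 1 and 1.56 without replicate 2. Median-ratio scaling, which brought the median gene at 12 h from -0.12 to -0.00, gave Gal -1.38 and 1.35, and voom gave -1.52 and 1.40. The number of genes called at 12 h, 2045, was 1253 under quantile normalization, 1215 under median-ratio scaling and 1114 with the replicate block, and the 392 at 24 h were 225 with no filter, where more genes were tested, and 183 with the replicate block. Libraries left out gave 212 to 5671 at 12 h (5671 without control 12 h replicate 1), 27 to 958 at 24 h, 0 to 3668 for the difference, 1692 to 4966 for time and 0 to 31 for the genes called at both times in the directions of Gal. A group left with 1 library is assumed to vary like the others. Same-numbered libraries did not deviate together in all pairs of groups (correlations from -0.613 to 0.241). This gives no sign of a pairing by number but cannot exclude one, since the deviation of any single library enters these correlations. The replicate block left the Gal estimates as they were, with an adjusted p of 0.00127 for time (limma). Of 1008 list counts, 846 stayed within 1.5 times. Leaving out a library makes its group smaller, and a lower filter tests more genes, but the cause of these moves was not tested. Depth limits Galr2 and leaves Galr1 below 3 fragments.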
